A study of Homo sapiens with 6 samples.

Results

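*NT5E*, which encodes the cell-surface 5′-nucleotidase CD73, and 9 other genes of extracellular adenosine were followed in normal colon fibroblasts after silencing of *LTBP2*. The 10 genes were taken by symbol from a count table of 60663 genes. *NT5E* was chosen because it rose strongly in this comparison, so its values are a description and carry no test. The other 9 were chosen for their place around it, with earlier results of these data known. They were *ENTPD1*, *ENTPD2* and *ENPP1* (extracellular nucleotide hydrolysis), *ADA* (adenosine deaminase), and *ADORA1*, *ADORA2A* and *ADORA2B* (adenosine receptors). *SLC29A1* (nucleoside transport) and *ADK* (adenosine kinase) completed the set. Of the 10 genes, 8 passed the filter on low counts and were among the 16920 genes tested, while *ENTPD2* and *ADORA2A* were not.

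The cells were CCD18Co, an established line of fibroblasts from normal human colon, for which the labels name no genetic change. They were transfected for 6 h by lipofection with a pool of siRNAs against *LTBP2* (siLTBP2), which encodes a secreted matrix protein of the latent TGF-β binding protein family, or with a non-targeting siRNA pool (siNT). RNA was collected 48 h after transfection, with 3 libraries numbered 1 to 3 in each group. The model is therefore 1 cell line and 1 pool against *LTBP2*, and the labels do not say whether the replicates were separate cultures, so that p-values measure the spread between these libraries.

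Cells release ATP, and ectonucleotidases on their surface remove its phosphates stepwise. CD39 (*ENTPD1*) and ENPP1 form AMP from ATP, and CD73 converts AMP to adenosine, which acts on G protein-coupled receptors until it is deaminated to inosine or taken up and phosphorylated. CD73 is also a classical surface marker of mesenchymal stromal cells and fibroblasts.

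In these cells *NT5E* was the member of highest level in both groups and was 2.698 times as high in siLTBP2. Among the other members, *ADORA2B*, *ENPP1* and *ADK* rose by smaller amounts. *ENTPD1* was low, with at most 81 counts a library, and *ENTPD2* at or next to 0 counts, so that the partner enzymes of CD73 differed widely in level. The promoters of *NT5E*, *ADORA2B* and *ENPP1* are shown because these 3 members had the largest log2 fold changes. They are RefSeq sequences from 250 bases before to 50 after the start site. The RefSeq start site of *NT5E* lies downstream of the GENCODE start of the gene, so that its window falls within the gene as placed below. Capitals mark the matches, on either strand and overlaps included, of the words ACGTG (the core of the hypoxia response element), TGACG (a cAMP response half-site), GGGCGG (a GC box), TGANTCA (AP-1) and GGAATG (TEAD).
NT5E promoter, GRCh38 chr6:85449833-85450132, plus strand: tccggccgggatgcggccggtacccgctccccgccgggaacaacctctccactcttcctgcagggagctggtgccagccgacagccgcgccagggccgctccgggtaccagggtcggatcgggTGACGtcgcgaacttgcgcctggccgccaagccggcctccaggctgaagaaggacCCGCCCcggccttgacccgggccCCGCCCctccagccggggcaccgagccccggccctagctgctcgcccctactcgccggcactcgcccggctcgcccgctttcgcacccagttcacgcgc
ADORA2B promoter, GRCh38 chr17:15944880-15945179, plus strand: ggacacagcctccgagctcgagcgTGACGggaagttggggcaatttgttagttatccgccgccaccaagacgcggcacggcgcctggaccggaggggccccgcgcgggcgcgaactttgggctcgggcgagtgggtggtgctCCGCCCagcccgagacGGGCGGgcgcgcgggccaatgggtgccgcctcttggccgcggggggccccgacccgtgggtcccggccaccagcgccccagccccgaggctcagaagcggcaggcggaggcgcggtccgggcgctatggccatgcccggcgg
ENPP1 promoter, GRCh38 chr6:131807770-131808069, plus strand: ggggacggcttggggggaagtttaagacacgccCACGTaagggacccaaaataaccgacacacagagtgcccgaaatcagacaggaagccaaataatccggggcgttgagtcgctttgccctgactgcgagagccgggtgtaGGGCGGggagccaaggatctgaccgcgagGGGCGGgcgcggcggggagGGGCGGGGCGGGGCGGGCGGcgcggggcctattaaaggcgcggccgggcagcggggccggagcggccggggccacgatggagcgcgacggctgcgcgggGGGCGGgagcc

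The *NT5E* promoter window held TGACG with its first base at -127 from the start site and GGGCGG on the minus strand at -72 and -49. The *ADORA2B* window held TGACG at -226, GGGCGG on the minus strand at -108 and on the plus strand at -92. The *ENPP1* window held ACGTG on the minus strand at -217 and 7 matches of GGGCGG, several of which overlap. Among all 35116 promoter windows of this length, 24.6% held TGACG, 45.0% GGGCGG, 21.4% ACGTG, 7.71% TGANTCA and 14.03% GGAATG. These matches are letters in a window and no factor was measured on them.

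The libraries held between 44663424 and 53576899 counts. *LTBP2* itself was at 25.0, 23.1 and 21.2 CPM (counts scaled to the TMM-normalized library size) in siNT 1 to 3 and at 6.49, 8.61 and 6.00 CPM in siLTBP2 1 to 3. Every siLTBP2 library lay below every siNT library, and 30.4% of the siNT mean remained (log2 fold change -1.72, standard error (SE) 0.15, quasi-likelihood test of edgeR, adjusted p = 6.6e-05). An exact permutation test of 3 libraries against 3, two-sided, gave p = 0.1, the smallest that this design allows. Over all genes, 19.3% passed the test at an adjusted p below 0.05 (9.76% higher and 9.51% lower in siLTBP2), and 2.57% were deregulated, with more than a 2-fold change and an adjusted p under 0.01.

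The cells carried the marker profile of fibroblasts. The summed level of 10 fibroblast genes ran from 9959 to 13222 CPM in siNT and from 10098 to 14431 CPM in siLTBP2. Only *PDGFRB* among them passed the test (log2 fold change -0.60, adjusted p = 0.0025), which is 10%, beside 19.3% of all genes. In 3 of the 10 the groups did not overlap, beside 37% of all genes. No gene of the 5 immune markers had more than 10 counts in a library and none of the 5 epithelial markers more than 14. The 5 endothelial markers summed to between 2.53 and 2.97 CPM in siNT and between 4.73 and 6.91 CPM in siLTBP2. Of the 2 tested, *TIE1* rose (log2 fold change 2.01, adjusted p = 0.0020), and *VWF*, with a mean of 1.58 CPM in siNT against 0.968 after silencing and no overlap, did not pass the test (log2 fold change -0.71, adjusted p = 0.065), while the defining genes *PECAM1*, *CDH5* and *KDR* had at most 12, 2 and 1 counts. The part of *TIE1* in the results below was not tested. In RNA from a whole culture, fewer cells of a type and less RNA per cell cannot be told apart.

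*NT5E* (ENSG00000135318) occupies positions 85449584 to 85495791 of chromosome 6 (GRCh38, plus strand), with 9 exons in the canonical transcript. Its level was 419.6, 394.9 and 409.9 CPM in siNT 1 to 3, from 19404, 19495 and 22101 counts. In siLTBP2 1 to 3 it was 1114.5, 1088.4 and 1100.4 CPM, from 48575, 51471 and 57988 counts. The groups lay far apart, and within each group the libraries were close to one another, with a coefficient of variation of 3.05% in siNT and 1.19% in siLTBP2. The mean went from 408 ± 12.4 CPM to 1101 ± 13.1 CPM (SD, n = 3), which gave a log2 fold change of 1.43 (SE 0.09).

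By log2 fold change *NT5E* ranked 138 among the 16920 genes tested, higher genes first. By the gain in CPM, 693 CPM, it ranked 6. Of the 219 genes deregulated upward, which are 1.29% of those tested, it had the second highest level in siNT (rank 2). *NT5E* is in this set through the rise for which it was chosen, so this rank is a description only. With each library left out in turn its log2 fold change stayed between 1.41 and 1.45. It was thus an abundant transcript already in siNT.

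**Figure D1:**
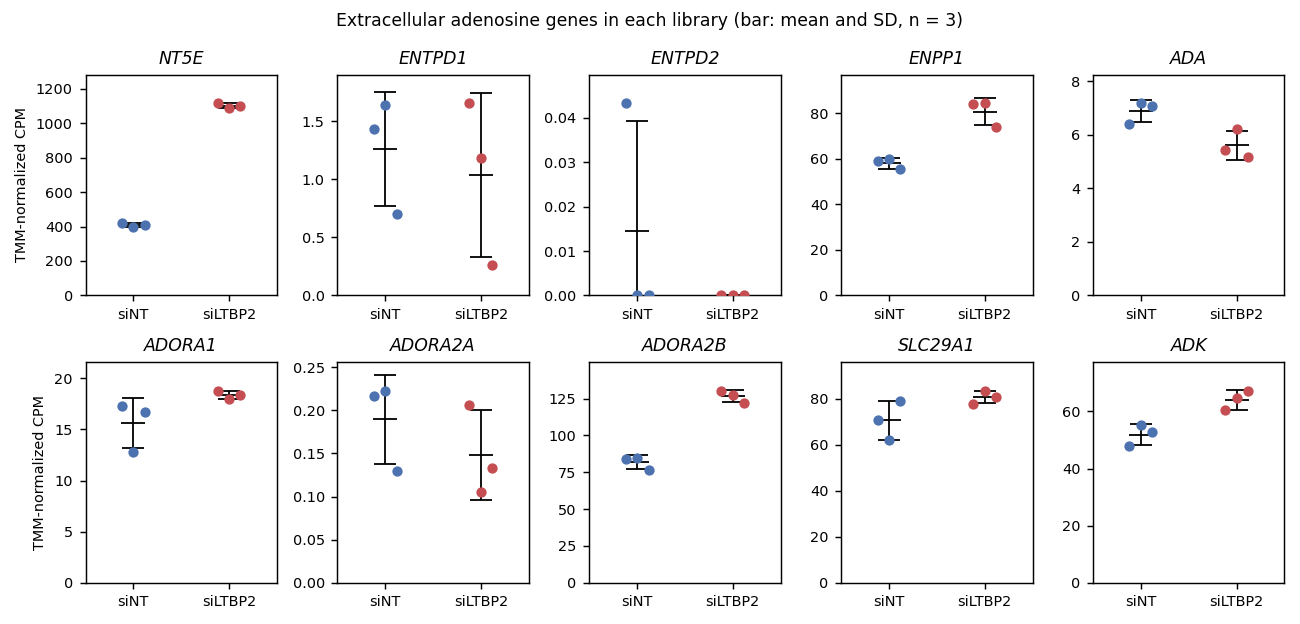
Level of each of the 10 genes in TMM-normalized CPM (vertical axes, linear, each starting at 0) in the siNT (blue) and siLTBP2 (red) libraries. Points are libraries in the order 1 to 3 and bars are the mean and SD (n = 3); *NT5E*, *ENPP1*, *ADORA2B* and *ADK* show siLTBP2 libraries that all lie above the siNT libraries, as does *ADORA1* with a narrow gap, and *ADA* shows the opposite order.

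CD73 also serves, with THY1 (CD90) and endoglin (CD105), as a surface marker of mesenchymal stromal cells, but the genes of the other 2 did not pass the test. *THY1* was at 1023, 917 and 861 CPM in siNT and at 857, 849 and 738 CPM in siLTBP2, where the lowest siNT library was just above the highest siLTBP2 library. Its log2 fold change was -0.20 (SE 0.11, adjusted p = 0.23), with a 95% interval from -0.43 to 0.04. *ENG* was at 303, 208 and 241 CPM in siNT and at 330.1, 277 and 267 CPM in siLTBP2, with overlapping groups (log2 fold change 0.22, SE 0.14, adjusted p = 0.31, 95% interval -0.09 to 0.52).

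Upstream of CD73, *ENPP1* (ENSG00000197594, chr6:131808016-131895155, plus strand), the ectoenzyme that splits ATP into AMP and pyrophosphate, was at 59.0, 60.0 and 55.4 CPM in siNT and at 83.9, 84.4 and 73.8 CPM in siLTBP2. All siLTBP2 libraries were above all siNT libraries. The mean rose from 58.1 ± 2.42 to 80.7 ± 5.97 CPM (SD, n = 3), with a log2 fold change of 0.47 (SE 0.09, adjusted p = 0.0040, 95% interval 0.28 to 0.66). It passed the test in every fit with 1 library left out.

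*ENTPD1* (ENSG00000138185, chr10:95711779-95877266, plus strand) encodes CD39, the ectoenzyme that takes ATP and ADP to AMP. It had 66, 81 and 38 counts in siNT and 72, 56 and 14 counts in siLTBP2, so that the third library was the lowest of each group and the groups overlapped. Its log2 fold change of -0.30 (SE 0.51, adjusted p = 0.74) had a 95% interval from -1.42 to 0.83. The libraries within a group differed widely, with a coefficient of variation of 39.0% in siNT and 68.2% in siLTBP2. Without siLTBP2 replicate 3 the sign turned, to 0.18 (adjusted p = 0.78). An antisense gene, *ENTPD1-AS1*, overlaps it, with a mean of 17.3 ± 1.36 in siNT against 16.6 ± 0.53 CPM after silencing (SD, n = 3), far above *ENTPD1*. The sources used here do not state the strand setting of the counting, so reads of the pair may not have been told apart.

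*ENTPD2*, which encodes another ectonucleotidase that prefers ATP, had 2 counts in siNT 1 and 0 in the other 5 libraries. In siLTBP2 a count of 0 allows up to 3 counts a library, or between 0.0569 and 0.0688 CPM, which covers counting error only. No fold change is given for it.

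The deamination of adenosine to inosine by *ADA* (ENSG00000196839) is one way in which the signal ends. *ADA* was at 6.40, 7.17 and 7.08 CPM in siNT and at 5.41, 6.22 and 5.18 CPM in siLTBP2. The groups did not overlap, with siLTBP2 the lower, but the difference did not pass the test (log2 fold change -0.30, SE 0.14, adjusted p = 0.16, 95% interval -0.60 to 0.0044). *PKIG*, which overlaps *ADA* on the opposite strand, was more abundant and passed the test in the same direction (79.1 ± 6.32 against 62.5 ± 2.35 CPM, SD, n = 3, log2 fold change -0.34, adjusted p = 0.021). Its part in the *ADA* counts was not tested.

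Of the adenosine receptors, *ADORA2B* (ENSG00000170425, chr17:15945130-15975746, plus strand), the receptor of low affinity that couples to Gs, had by far the most counts. It was at 84.4, 84.6 and 76.5 CPM in siNT and at 130.4, 127 and 122 CPM in siLTBP2. The groups did not overlap. The mean rose from 81.8 ± 4.63 to 127 ± 4.12 CPM (SD, n = 3), with a log2 fold change of 0.63 (SE 0.08, adjusted p = 5.4e-04, 95% interval 0.45 to 0.81). The rise passed the test with any 1 library left out, at log2 fold changes from 0.59 to 0.66.

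*ADORA1* (ENSG00000163485, chr1:203090654-203167405, plus strand), a receptor of high affinity that couples to Gi, was at 17.3, 12.8 and 16.7 CPM in siNT and at 18.8, 18.0 and 18.4 CPM in siLTBP2. Although the groups did not overlap, the gap between siNT 1 and siLTBP2 2 was small, and siNT 2 stood below the other libraries. The difference did not pass the test (log2 fold change 0.24, SE 0.13, adjusted p = 0.23, 95% interval -0.04 to 0.51). Without siNT replicate 2 the log2 fold change was 0.11.

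*ADORA2A*, a Gs-coupled receptor best known from immune cells and striatum, had 10, 11 and 7 counts in siNT and 9, 5 and 7 counts in siLTBP2, and was not tested. Its readthrough partner *SPECC1L-ADORA2A*, which shares its sequence, had at most 2 counts. The sources used here do not state how reads in shared exons were counted. Reads given to neither gene would leave the level of *ADORA2A* too low, which was not tested. The receptor *ADORA3* had 1 count in all, in siLTBP2 3. On a scale per length, *ADORA2B* accounted for between 89.1% and 92.1% of the summed level of the 4 receptors in siNT and for between 92.2% and 92.7% in siLTBP2. These shares use the counted level of *ADORA2A*, which may be too low.

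For uptake, *SLC29A1* (ENSG00000112759, chr6:44219553-44234142, plus strand), the equilibrative nucleoside transporter ENT1, was at 70.9, 62.2 and 78.9 CPM in siNT and at 78.0, 83.6 and 81.0 CPM in siLTBP2. The groups overlapped, and siNT 2 was the lowest library. The log2 fold change of 0.19 (SE 0.10, adjusted p = 0.20) had a 95% interval from -0.02 to 0.41. *SLC29A1* supplied between 87.9% and 90.9% of the summed level per length of 7 nucleoside transporters in siNT and between 89.7% and 90.7% in siLTBP2.

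*ADK* (ENSG00000156110, chr10:74151202-74709963, plus strand) encodes the kinase that returns adenosine to AMP inside the cell. It was at 47.7, 55.1 and 52.8 CPM in siNT and at 60.4, 64.7 and 67.3 CPM in siLTBP2. The groups did not overlap, and the mean rose from 51.9 ± 3.78 to 64.1 ± 3.48 CPM (SD, n = 3; log2 fold change 0.31, SE 0.09, adjusted p = 0.036, 95% interval 0.11 to 0.50). This call rested on the full set of libraries. It was lost in every fit that left out 1 library except that without siNT replicate 2, with adjusted p from 0.0528 (without siLTBP2 replicate 1) to 0.146 (without siNT replicate 1). The direction remained the same in all of them. Such fits passed 12.4% to 15.9% of all genes, beside 19.3% with every library. The pseudogene *POLR3DP1*, which overlaps *ADK*, had at most 12 counts and did not pass the test (log2 fold change 0.74, adjusted p = 0.35).

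Of the 7 other members tested, 3 passed the test and all 3 were higher in siLTBP2, beside 9.76% of all genes higher and 9.51% lower. None of the 7 was deregulated. In a fit with the replicate number as a block, 5 of the 7 passed, beside 36.2% of all genes. In 5 of the 7 the groups did not overlap, beside 37% of all genes (18.7% with siLTBP2 the higher and 18.3% with siLTBP2 the lower). The median log2 fold change of the 7 was 0.24, beside -0.01 over all genes tested.

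**Figure D2:**
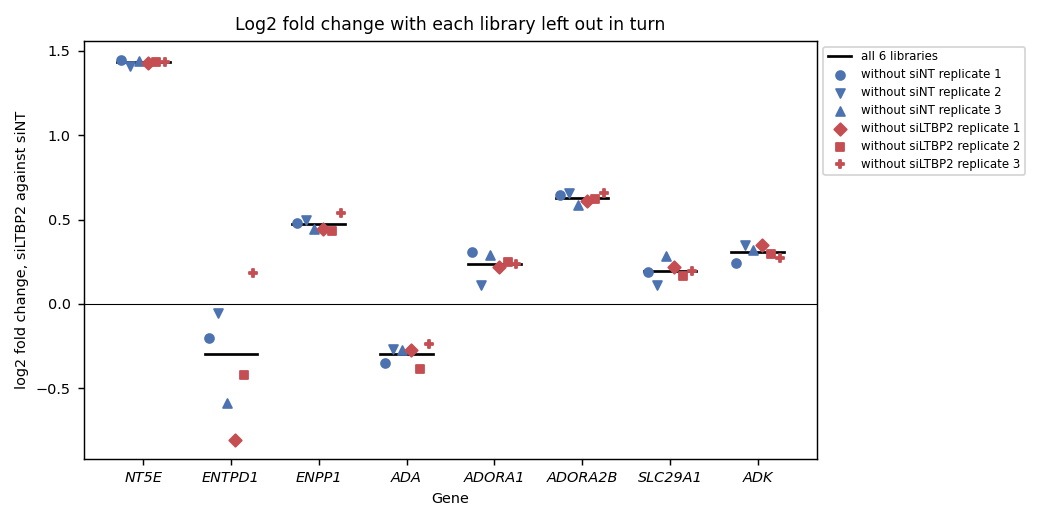
Log2 fold change of siLTBP2 against siNT (vertical axis) for the 8 genes tested, with all 6 libraries (black line) and with each library left out in turn (blue symbols for siNT, red for siLTBP2). *NT5E* stays between 1.41 and 1.45, *ENPP1*, *ADORA2B* and *ADK* stay above 0, and *ENTPD1* crosses 0 without siLTBP2 replicate 3.

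Levels between genes were compared per kilobase of exon. In siNT the order was *NT5E* at 90.0 ± 2.74, *ADORA2B* at 35.0 ± 1.98, *SLC29A1* at 16.4 ± 1.94 and *ADK* at 11.1 ± 0.81 CPM per kilobase (SD, n = 3). It went on with *ENPP1* at 5.09 ± 0.21, *ADORA1* at 3.72 ± 0.58, *ADA* at 0.565 ± 0.035, *ENTPD1* at 0.0877 ± 0.034 and *ADORA2A* at 0.0453 ± 0.012 CPM per kilobase, with *ENTPD2* last. The ranges of neighbors in this order did not overlap, except those of *ENTPD1* and *ADORA2A*. With the length of the canonical transcript in place of all exons the order was the same, but *ADORA1* and *ADA* then overlapped as well. The exons of *ADA* add up to 12177 bases in GENCODE 44 against 1496 in its canonical transcript, and its start there differs from that in the deposited table, so its level per length is uncertain. The level of *ADORA2A* is uncertain too, because it shares exons with its readthrough partner.

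*NT5E* ranked 338 of 16874 genes by level per length in siNT and 90 in siLTBP2, where it reached 243 ± 2.88 CPM per kilobase (SD, n = 3). In siLTBP2 *ADORA2B* was at 54.1 ± 1.76, *SLC29A1* at 18.8 ± 0.66, *ADK* at 13.8 ± 0.75 and *ENPP1* at 7.06 ± 0.52 CPM per kilobase. Among 10 ectonucleotidase genes *NT5E* made up between 93.6% and 94.4% of the summed level per length in siNT and between 96.7% and 97.2% in siLTBP2. These shares are of transcripts and say nothing of enzyme activity.

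**Figure D3:**
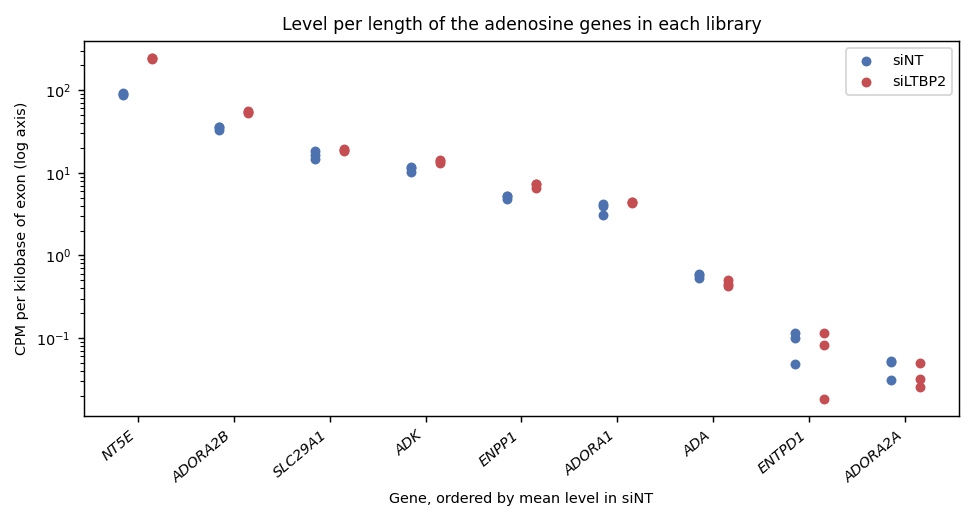
Level of the genes in CPM per kilobase of exon (vertical log axis) in each siNT (blue) and siLTBP2 (red) library, ordered by the mean in siNT. *ENTPD2* is left out because most of its libraries are at 0; *NT5E* is highest in both groups, and *ENTPD1* and *ADORA2A* lie far below the rest.

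The surrounding pathway was taken as 99 genes of extracellular ATP and adenosine in 10 role groups, of which 67 were tested. Of the 66 tested besides *NT5E*, 8 were higher and 10 lower in siLTBP2. That is 27.3%, beside 19.3% of all genes, and the median log2 fold change was -0.09. In 32 of the 66 the groups did not overlap, beside 37% of all genes. Of the 66, *SLC28A3* and *DPP4* were deregulated, 1 in each direction, beside 2.57% of all genes.

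*SLC28A3* encodes the concentrative nucleoside transporter CNT3. It was at 0.605, 0.527 and 0.742 CPM in siNT, from 28, 26 and 40 counts, and at 3.35, 3.19 and 4.36 CPM in siLTBP2, from 146, 151 and 230 counts. The groups were well apart, at a level that stayed low in both (log2 fold change 2.53, SE 0.22, adjusted p = 7.5e-05). *SLC29A4*, a plasma membrane monoamine and adenosine transporter, fell from 8.24 ± 1.27 to 5.29 ± 1.03 CPM (SD, n = 3; adjusted p = 0.029).

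*DPP4* encodes CD26, a surface peptidase that also anchors adenosine deaminase outside the cell. It was at 158.8, 168.6 and 129.8 CPM in siNT and at 59.8, 63.4 and 47.0 CPM in siLTBP2. Every siLTBP2 library lay below every siNT library, and the log2 fold change was -1.43 (SE 0.13, adjusted p = 8.5e-05). Its size was close to that of *NT5E* and its direction the opposite. *DPP4* was the gene of highest level per length in the deamination group, at 10.6 ± 1.40 CPM per kilobase in siNT (SD, n = 3).

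Among 14 tested enzymes that handle adenosine and AMP inside the cell, *ADK* and *PNP* were higher and *APRT* lower. That is 21.4%, close to the 19.3% of all genes. *PNP*, the phosphorylase that takes inosine on to hypoxanthine, rose from 38.7 ± 5.32 to 66.0 ± 12.8 CPM (SD, n = 3; log2 fold change 0.77, adjusted p = 0.0040). *APRT*, which salvages adenine to AMP, fell from 91.3 ± 1.39 to 57.6 ± 2.11 CPM (SD, n = 3; log2 fold change -0.66, adjusted p = 3.0e-04). Of 5 tested intracellular 5′-nucleotidases 2 were lower and none higher (40% passing, beside 19.3% of all genes). *NT5C2*, the cytosolic enzyme for IMP and GMP, fell from 97.2 ± 5.11 to 59.3 ± 4.21 CPM (SD, n = 3; log2 fold change -0.71, adjusted p = 3.9e-04), and *NT5C3B* from 83.1 ± 3.82 to 66.4 ± 2.90 CPM (log2 fold change -0.33, adjusted p = 0.018).

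Of 6 tested genes of ATP release, *GJA1* (connexin 43), the most abundant, alone passed (16.7%, beside 19.3% of all genes) and was lower. It went from 512 ± 109.6 to 331 ± 68.2 CPM (SD, n = 3; log2 fold change -0.63, adjusted p = 0.032), with siNT 3 at 391 CPM and siLTBP2 1 at 388 CPM next to each other. Of 15 P2X and P2Y receptors, which are receptors of extracellular nucleotides, 10 had too few counts to be tested. Of the 5 tested, 2 passed (40%, beside 19.3% of all genes). *P2RX5* fell from 2.08 ± 0.19 to 1.18 ± 0.09 CPM (adjusted p = 0.015) and *P2RX6* from 6.22 ± 1.65 to 2.19 ± 1.14 CPM (SD, n = 3; adjusted p = 0.012), while *P2RX4*, the highest of the group per length, did not pass (log2 fold change 0.25, adjusted p = 0.11).

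Downstream of the receptors, 15 G protein, adenylyl cyclase and cAMP phosphodiesterase genes were tested, of which 2 were higher and 2 lower. That is 26.7%, beside 19.3% of all genes. *GNAI1*, an inhibitory G protein subunit, fell from 309.9 ± 16.8 to 208 ± 13.7 CPM (SD, n = 3; log2 fold change -0.58, adjusted p = 0.0016). *ADCY9* was lower (log2 fold change -0.30, adjusted p = 0.046), and the phosphodiesterase genes *PDE7A* (log2 fold change 0.44, adjusted p = 0.021) and *PDE7B* (log2 fold change 0.62, adjusted p = 0.020) were higher. The Gs subunit gene *GNAS* (log2 fold change 0.12, adjusted p = 0.44) and *GNAI2* (log2 fold change 0.14, adjusted p = 0.39), the highest of this group per length, did not pass the test.

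Of 8 genes known to respond to cAMP, 1 passed (12.5%, beside 19.3% of all genes). This was *CREM*, rising from 16.0 ± 1.12 to 22.8 ± 1.28 CPM (SD, n = 3; log2 fold change 0.52, adjusted p = 0.0060). The other 7, among them *NR4A1* (log2 fold change -0.30, adjusted p = 0.21) and *DUSP1* (log2 fold change 0.43, adjusted p = 0.17), did not pass. When 1 library was left out, *ADCY9*, *GJA1*, *NT5C3B*, *P2RX5*, *P2RX6*, *PDE7A*, *PDE7B* and *SLC29A4* each lost the call in at least 1 fit. No such fit lost the call of *SLC28A3*, *DPP4*, *PNP*, *APRT*, *NT5C2*, *GNAI1* or *CREM*. Of all genes, 12.4% to 15.9% passed in these smaller fits.

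**Figure D4:**
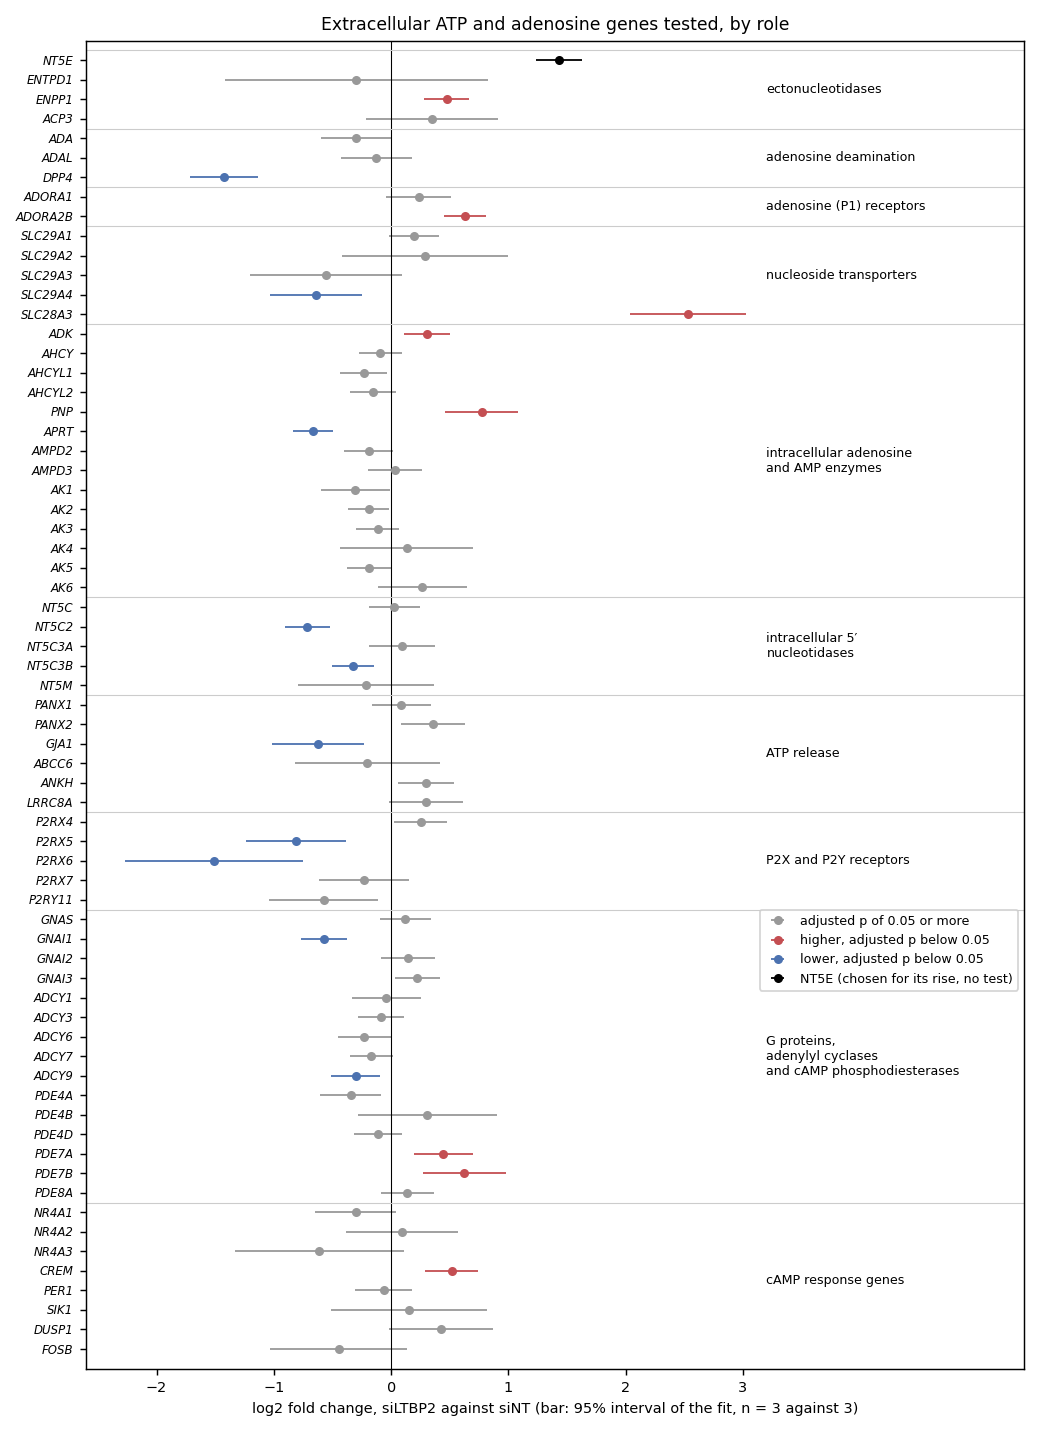
Log2 fold change of siLTBP2 against siNT (horizontal axis, 95% interval of the fit, n = 3 against 3) for the 67 tested genes of extracellular ATP and adenosine, grouped by role. Red genes were higher and blue genes lower at an adjusted p below 0.05, gray genes did not pass, and *NT5E* (black) carries no test; *SLC28A3* lies farthest to the right, and *DPP4* and *P2RX6* farthest to the left.

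Among tested genes with a symbol and a mean of at least 1 CPM, the pattern of *NT5E* over the 6 libraries was most like that of *CAPN2* (Pearson r = 0.9997 of log2 CPM), a calpain subunit. Next were *STXBP5-AS1* (0.9989), *ANXA5* (0.9987), *TGIF1* (0.9982) and *PAG1* (0.9975). Their log2 fold changes were 0.86, 2.71, 0.55, 0.73 and 0.96. All 6 points share the same division into siNT and siLTBP2. These values therefore describe the shift between the groups together with the spread within them, and were not tested.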

How the data were processed

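RNA sequencing of 6 CCD18Co libraries was used. The authors prepared stranded libraries depleted of ribosomal RNA and deposited raw counts per gene, unnormalized. Per the submitters' processing notes, STAR 2.7.1a, HTSeq 0.11.2 and GRCh38 were used. The sources used here name neither the annotation release nor the strand setting, and the labels give no batch. Libraries of a group were not duplicates (chi-square per degree of freedom at least 27.73).

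Genes were filtered, scaled by TMM and tested two-sided with edgeR 4.0.16 in R 4.3.3 (filterByExpr, glmQLFit, glmQLFTest), with Benjamini-Hochberg adjusted p-values over the 16920 genes tested. Of the deposited identifiers, 60462 are in GENCODE 44, from which exon lengths and positions came. Promoters are RefSeq windows of GRCh38.p14, found for 9 of the 10 members. Steps were tested on simulated data with 193 changed genes. They recovered 98.4% of these genes, and 7.32% of the calls at an adjusted p below 0.05 were false.

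The members and lists were chosen with earlier results of these data known. Named genes are the members, *LTBP2*, the genes of the wider list that passed, the highest gene per role group, tested genes overlapping a member, the 5 most like *NT5E* and the markers. *GNAS*, *NR4A1* and *ADORA3* were added after their values were seen.

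Alternatives were the likelihood ratio test used in the study, DESeq2 1.42.0, other scalings (total counts, RLE, upper quartile), no filter or one of 1 CPM in 3 libraries, a block by replicate number, canonical length and each library left out.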

Additional observations from a re-analysis of the deposited data

How the results depend on the processing

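Low counts limited what could be said of *ENTPD2* and *ADORA2A*, and the spread between libraries what could be said of *ENTPD1*. The members passing the test besides *NT5E* numbered 3 under the likelihood ratio test and DESeq2 as well. Values moved as follows, and the cause was not tested. With no low-count filter 680 genes were deregulated, 356 of them lower. With total counts the log2 fold change of *NT5E* was 1.39, and with canonical transcript length its siNT level was 115 CPM per kilobase. Under the thresholds for deregulated genes, the wider list kept 1 higher and 1 lower gene besides *NT5E*. *ADK* lost its call with total counts (0.27, adjusted p = 0.085) and with no filter (0.29, adjusted p = 0.058). Its call held under the likelihood ratio test (adjusted p = 0.0227), DESeq2 (adjusted p = 0.0265) and the replicate block (adjusted p = 0.00114). *ENTPD1* ran from -0.80 (without siLTBP2 replicate 1) to 0.18 (without siLTBP2 replicate 3) with 1 library left out. Leaving out 1 library gave 308 to 405 deregulated genes, 137 to 201 higher (137 without siNT replicate 2) and 155 to 207 lower. It gave 2 to 3 other members passing, and 5 to 8 higher (5 without siNT replicate 1) and 6 to 9 lower genes (6 without siLTBP2 replicate 2) of the wider list. In these fits fewer of all genes passed too, from 12.4% to 15.9% in place of 19.3%. Correlations of deviations were 0.298, 0.0832 and 0.428 between libraries of the same number and -0.391 to 0.103 between different numbers, and 5 of the 6 libraries correlated best with their own number. Libraries of the same number may thus be paired, which the sources used here do not state. The main fit did not use the number, so its p-values ignore any such pairing. With the replicate number as a block, 636 genes were deregulated (336 lower), and 36.2% of all genes passed the test in place of 19.3%. Of the other members 5 then passed, with *ADORA1* (0.25, adjusted p = 0.040) and *SLC29A1* (0.20, adjusted p = 0.042) added, and 17 higher and 20 lower genes of the wider list.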

Other observations

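The word GCACCCA was chosen after an earlier search of 3′ UTRs in this same comparison, so its counts here are a description. It was looked for on the transcript strand in 3′ UTRs of at least 50 bases of canonical transcripts. Of all 12314 tested genes with such a UTR, 11.8% held it, with 28.5% of the genes lower in siLTBP2, 6.73% of those higher and 10.1% of those that did not pass. Of the extracellular ATP and adenosine genes, 3 of the 10 lower ones, 4 of the 9 higher ones and 3 of the 48 that did not pass held it. *NT5E* and *ADORA2B* did not, *ENPP1* held 1 site, and *ENTPD1* held 2. The 9 higher genes include *NT5E*, which was chosen for its rise. Sites of 1 higher member and of the 3 lower genes are shown, with the word in capitals. Other sites are left out, among them those of *SLC28A3* and *CREM*, which were higher.
ENPP1, GRCh38 chr6:131893660-131893680, plus strand: ggaaagaGCACCCAcatctgc
NT5C2, GRCh38 chr10:103089637-103089657, minus strand: accccaaGCACCCAttaaaca
SLC29A4, GRCh38 chr7:5306676-5306696, plus strand: acgcgtgGCACCCAacttctt
P2RX5, GRCh38 chr17:3673808-3673828, minus strand: ccgtctaGCACCCAgtgatcc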
